A study of Mus musculus with 28 samples.

Results

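Day-1 embryoid bodies grown from short-telomere mouse embryonic stem cells were compared with those grown from long-telomere cells, gene by gene. The genes were all those with at least 1 TPM, the length-corrected share of a library's transcripts, in 2 or more of the 4 libraries, which kept 16897 of the 53564 genes in the table. The 4 libraries, 2 in each group, are part of a series of 28 on germ cell differentiation from stem cells. The short-telomere cells (ST) were Terc-knockout stem cells of generation 4, and the long-telomere cells (LT) were wild-type stem cells, both labelled C57BL6. The rescued cells (RT), Terc-knockout stem cells with Terc restored, gave 2 more libraries. In all 3 groups the stem cells were first turned into epiblast-like cells over 2 days with KSR at 1%, bFGF and activin A at 2 ng/ml. They were then aggregated for 1 day with BMP4 at 500 ng/ml, SCF at 100 ng/ml, EGF at 50 ng/ml and 1000 IU of LIF, which gave the embryoid bodies (1dEB). The labels do not say whether the replicates were separate cultures or how many clones stood behind each group. Every p-value therefore measures only a spread between libraries, which was estimated over 16 libraries in 8 groups of the series. The labels do not say whether feeder cells lay under the stem cells.

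Terc is the RNA template that telomerase copies into telomere repeats, and cells bred without it for several generations carry ever shorter telomeres. Very short telomeres are read by the cell as DNA damage, which in many cell types leads to p53 activity, cell cycle arrest and a secretory state called senescence. Aggregates of epiblast-like cells in BMP4 normally keep pluripotency genes on while a first wave of germ cell and mesoderm genes appears.

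Terc itself matched the labels. It was at 0.921 and 1.70 TPM in the LT libraries, at 0 in both ST libraries, and at 3.35 and 1.75 TPM in the RT libraries. It stood below the filter in the LT and ST libraries and was not tested.

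Values were read on 2 scales, because the libraries differed in make-up. Nuclear protein-coding genes took 38.6% and 38.8% of all TPM in LT but 44.4% and 44.0% in ST. The difference was taken up by ribosomal RNA-like transcripts of chromosome 17 (20.9% and 20.8% in LT, 17.7% and 18.2% in ST), by the mitochondrial ribosomal RNAs and by short RNA genes. Gm23935, a short gene of chromosome 16 annotated as a microRNA, alone stood at 24485 and 26046 TPM in LT and at 4798 and 2582 TPM in ST. The second scale therefore multiplied each library by a factor that set its nuclear protein-coding total equal. A gene is called higher or lower below only when limma gave an adjusted p under 0.05 in the same direction on both scales. The median gene differed by 0.15 (ST minus LT, log2(TPM + 1)) on the deposited values and by -0.01 on the rescaled values.

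On both scales 4785 of the 16897 genes (28.3%) were higher in ST and 2579 (15.3%) were lower. With a difference of at least 2-fold on both scales, 2155 genes (12.8%) were higher and 491 (2.91%) were lower, so the large differences were mostly gains. Of these, 1640 of the higher and 216 of the lower genes were nuclear protein-coding. The split depended on the scale. Deposited TPM gave 5777 higher (34.2%) and 2579 lower (15.3%), rescaled values gave 4797 higher (28.4%) and 4226 lower (25.0%), and quantile normalization gave 4046 higher and 5039 lower. The 2 ST libraries correlated at r = 0.967 and the 2 LT libraries at r = 0.972 across genes, against 0.880 to 0.886 between groups, and 73.3% of all genes, or 65.3% on both scales, had libraries that did not overlap between the groups. The plot of ST against LT expression shows this lopsided spread.

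**Figure D1:**
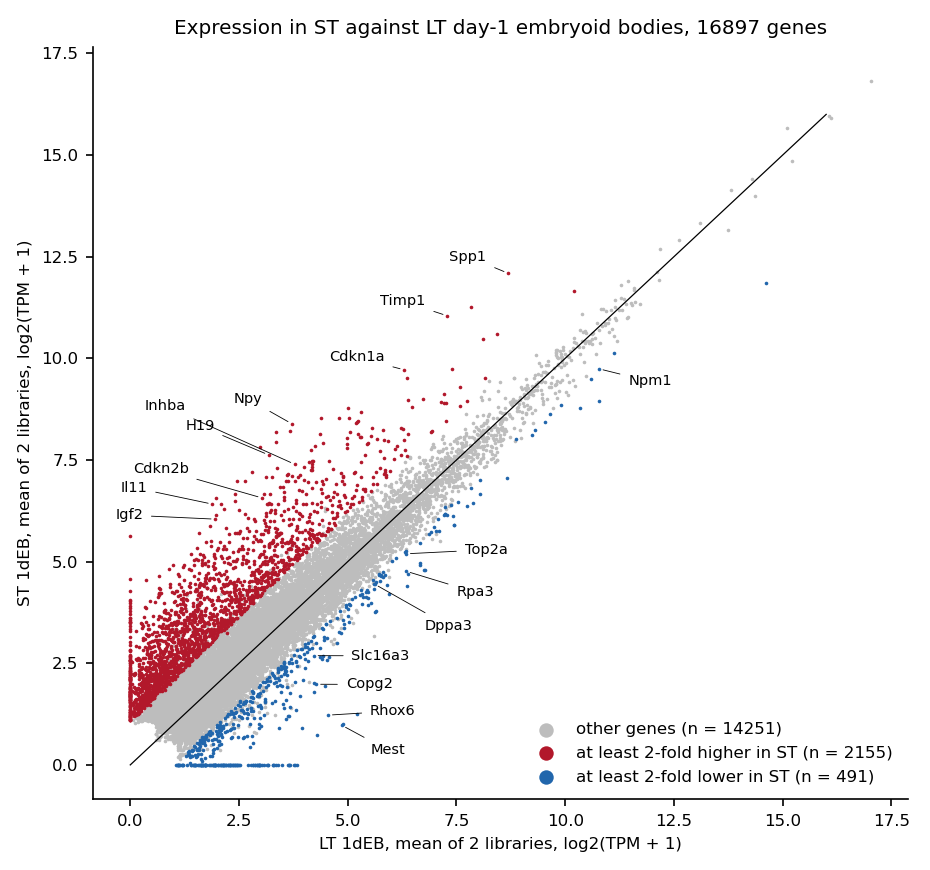
Mean expression of 16897 genes in 2 ST libraries (vertical axis) against 2 LT libraries (horizontal axis), both as log2(TPM + 1), with the line of equality. Genes at least 2-fold higher in ST on both scales (2155, red) outnumber those at least 2-fold lower (491, blue), and Spp1, Timp1 and Npy stand far above the line.

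Among protein-coding genes named by the rule for changes in TPM, the first was Spp1, which encodes the secreted phosphoprotein osteopontin. It rose from 399 and 420 TPM in LT to 4570 and 4180 TPM in ST. On the rescaled values it was 428 and 449 against 4269 and 3934, a log2 difference of 3.41 ± 0.08 (SE) on deposited and 3.22 on rescaled values. Timp1, a secreted inhibitor of matrix metalloproteinases, was at 156 and 154 TPM in LT and 2113 and 2120 TPM in ST (log2 difference 3.77 ± 0.11). No ST library came near an LT library for either gene. Ferritin light chain Ftl1, ferritin heavy chain Fth1, the actin-binding Tmsb4x, the galectin Lgals1, the pluripotency-associated Dppa5a and the lysosomal protease Ctsd made up the rest of the 8 largest gains in TPM by that rule. That rule sets aside members of preset p53, stroma and interferon lists, so these are not the largest gains of all genes. Cdkn1a, which was set aside, went from 77.8 and 77.3 TPM in LT to 833 and 849 TPM in ST.

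By log2 difference, with the members of the p53, stroma and interferon lists set aside, the protein-coding gene with the largest gain among those named was Npy, the gene of the secreted peptide neuropeptide Y, on chromosome 6 (mm10 chr6:49822710-49829507). The 49-base T cell receptor segment Trbj2-3 had a larger difference (5.63), at 0 in LT. Npy was at 12.7 and 11.4 TPM in LT, 349 and 321 TPM in ST, and 53.5 and 53.9 TPM in RT. Il11, a cytokine of the interleukin-6 family, was at 2.61 and 2.77 TPM in LT and 82.9 and 85.7 TPM in ST (log2 difference 4.53 ± 0.12), with RT at 8.46 and 8.08 TPM. For both genes the RT libraries lay between the other groups, also on the rescaled values, where RT stood at 81.7 and 76.7 for Npy and at 12.9 and 11.5 for Il11. Tfpi2, a secreted protease inhibitor, C1qtnf3, a secreted protein with a C1q domain, and the calcium-binding S100g had log2 differences between 4.18 and 4.31. The prolactin-family genes Prl2c3 and Prl2c2 rose by 4.44 and 4.27, and as near-identical copies they may share reads.

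A chromosome 7 imprinted locus moved as a pair. H19, a non-coding RNA expressed from the maternal copy, was at 7.45 and 8.70 TPM in LT and 197 and 196 TPM in ST (log2 difference 4.45 ± 0.06). Igf2, the neighbouring growth factor gene expressed from the paternal copy, was at 3.17 and 2.58 TPM in LT and 64.2 and 65.8 TPM in ST (log2 difference 4.10 ± 0.09). Both genes were thus nearly silent in LT and well expressed in both ST libraries, and Mir675, which lies inside H19 and shares its sequence, rose with it. In RT, H19 stood at 25.4 and 26.2 TPM and Igf2 at 16.1 and 18.4 TPM.

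The reverse was seen at another imprinted locus. Mest, a paternally expressed gene of the hydrolase family on chromosome 6 (mm10 chr6:30723547-30748465), was at 28.6 and 27.7 TPM in LT and at 0.992 and 0.934 TPM in ST, the largest fall of a protein-coding gene by the naming rule (log2 difference -3.89 ± 0.06). Its neighbour Copg2, which encodes a coat protein of transport vesicles and overlaps the end of Mest on the other strand, was at 19 and 17.9 TPM in LT and 2.6 and 3.31 TPM in ST. Mest was as low in RT, at 0.695 and 0.562 TPM, and so was Copg2, at 1.95 and 1.66 TPM. Among 26 imprinted genes tested, 12 were higher and 7 lower in ST, with a rescaled median of 0.13. The maternally expressed Meg3 (2.56) and the paternally expressed Dlk1 (1.72) of chromosome 12 were among those higher, and Snrpn (-1.01), Phlda2 (-0.96) and Nnat (-0.89) among those lower. Rhox6, a homeobox gene of the X chromosome, fell from 22 and 23 TPM to 0.969 and 1.70 TPM.

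Short RNA genes filled 8 of the 12 lowest places by the naming rule, with Mir6973b, Snord64, Mir142, Mir142b, Trbj2-4 and Mir7035 at 0 TPM in both ST libraries. The median length of the 910 short RNA genes tested was 96 bases, so a few reads give a large TPM, and the read numbers behind them are not known. They made up 104 of the genes at least 2-fold higher and 111 of those at least 2-fold lower.

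**Figure D2:**
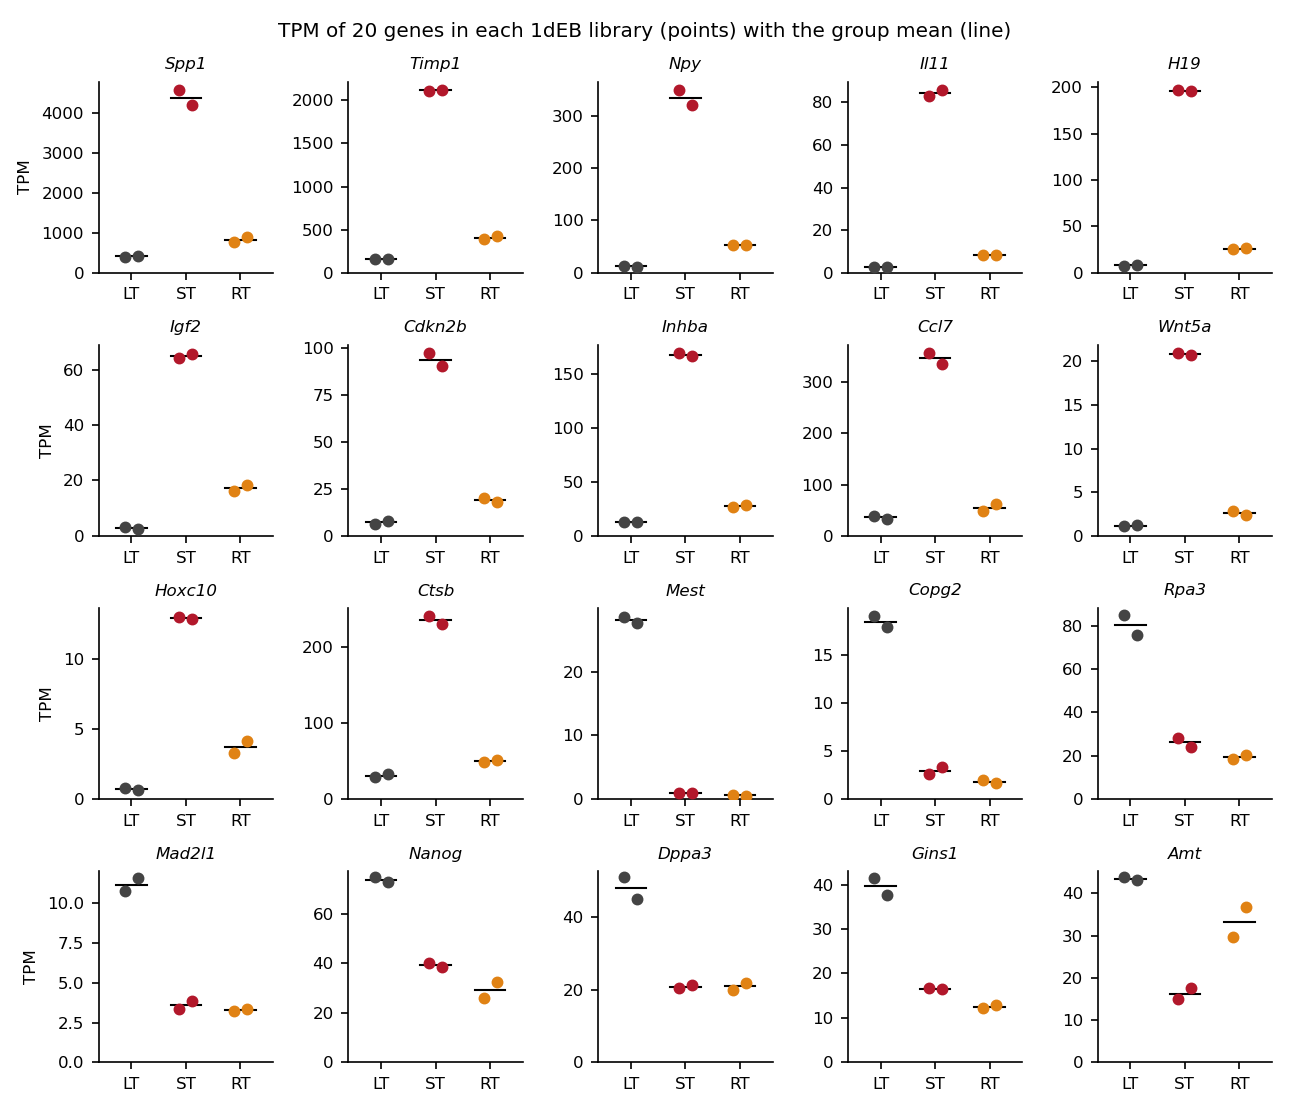
TPM of 20 genes in each LT, ST and RT day-1 embryoid body library (points, 2 per group) with the group mean (line), each panel on its own linear axis from 0. Spp1 stands at 4570 and 4180 TPM in ST against 399 and 420 TPM in LT, while Mest is near 1 TPM in both ST and RT and near 28 TPM in LT.

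Gene lists were next read as counts of members called, against 28.3% higher and 15.3% lower among all genes tested. A member silent in LT passes the expression filter through ST alone, so these counts describe the members that passed and carry no test of the list. The p53, stroma and interferon lists that earlier work on these libraries had singled out stood at 27 of 36, 24 of 24 and 36 of 41 members higher. The groups that follow were drawn up beside them and share some members with them and with each other. The senescence-associated list shares 8 members with the matrix list and 5 with the NF-kB list.

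**Figure D3:**
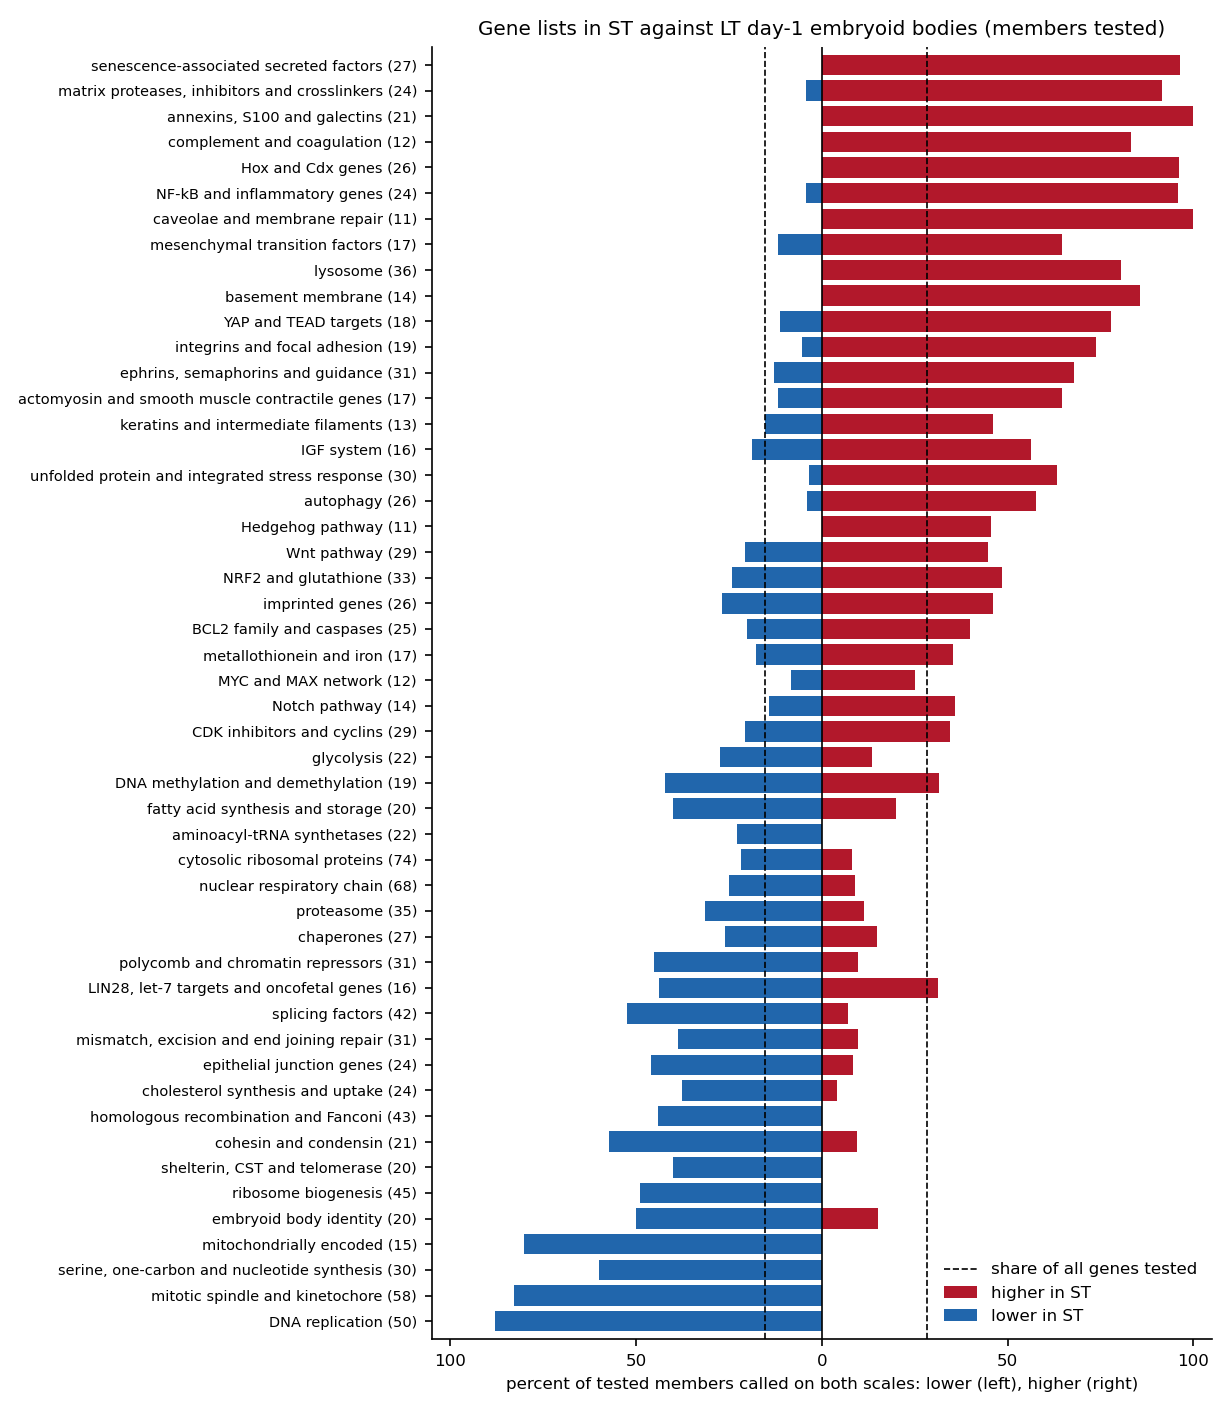
Percent of tested members of each gene list shown called higher (right, red) or lower (left, blue) in ST on both scales, lists ordered by rescaled median and members tested in brackets. Dashed lines mark the shares of all genes tested, 28.3% higher and 15.3% lower, and the lists run from senescence-associated secreted factors (26 of 27 higher) to DNA replication (44 of 50 lower).

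Secreted factors of the senescent state rose almost as a body. Of 27 tested members 26 were higher and none lower, and the rescaled median was 2.48. Their summed level was 721 and 734 TPM in LT, 7977 and 7559 TPM in ST, and 1450 and 1651 TPM in RT. Inhba, the activin A subunit, was at 12.7 TPM in both LT libraries and at 169 and 166 TPM in ST (log2 difference 3.62 ± 0.11). The chemokine Ccl8 went from 9.53 and 7.74 TPM to 137 and 134 TPM. Other members were Vegfa (3.04), the angiogenic growth factor and the EGF receptor ligands Areg (2.69) and Ereg (2.55). Igfbp3, which binds insulin-like growth factors, was the tested member not called (-0.16). Il6, the best known cytokine of this state, stayed low at 2.90 and 1.92 TPM in ST against 0.0802 and 0.148 TPM in LT.

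Cell cycle inhibitors showed the same direction at the top of their list but not through it. Cdkn2b, which encodes the CDK4 and CDK6 inhibitor p15, was at 6.43 and 7.88 TPM in LT and 97.1 and 90.5 TPM in ST (log2 difference 3.54 ± 0.12), beside 3.42 for Cdkn1a, which encodes p21. The ST and LT libraries were far apart for Cdkn2b, and RT stood between at 19.9 and 17.8 TPM. Its neighbour Cdkn2a, source of p16 and p19ARF, reached 3.67 and 3.98 TPM in ST from 1.33 and 0.921 TPM, a difference called with a pseudocount of 1 and not with 0.1 (adjusted p = 0.078). Cyclin D1, Ccnd1, was also higher (1.46 ± 0.07). Over the 29 inhibitors and cyclins tested, 10 were higher and 6 lower.

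Inflammatory genes were higher in 23 of 24 tested members of the NF-kB list, with a rescaled median of 1.36. NF-kB is a family of transcription factors held inactive in the cytoplasm until a stimulus frees them. The monocyte chemokine Ccl7 was at 39.2 and 32.8 TPM in LT and 357 and 336 TPM in ST (log2 difference 3.24 ± 0.15), and Ccl2 at 13.7 and 14.1 TPM against 142 and 135 TPM. The subunits Nfkb2 (1.58), Relb (1.45) and Rela (1.22), the inhibitor Nfkbia (1.4) and the receptor Tnfrsf1a (2.21) rose as well. The mitochondrial superoxide dismutase Sod2 was the member that fell (-0.25). A further 9 members, among them Tnf, Il1a, Il1b and Cxcl1, were below the filter. Of 12 complement and coagulation genes tested 10 were higher, led by the protein C receptor Procr (2.80) and tissue factor F3 (2.52).

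The promoters of Cxcl10 and Il6 hold the NF-kB motif within the 120 bases before the annotated start and are shown because both genes rose on both scales. The sequences are from RefSeq (GRCm38.p6), 5′ to 3′ on the gene's strand, with the motif in capitals, at chr5:92348890-92349009 (minus strand) for Cxcl10, a chemokine also induced by interferon, and chr5:30012994-30013113 (plus strand) for Il6.
Cxcl10: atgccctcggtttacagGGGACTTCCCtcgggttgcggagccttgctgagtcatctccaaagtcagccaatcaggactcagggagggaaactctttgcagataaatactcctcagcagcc
Il6: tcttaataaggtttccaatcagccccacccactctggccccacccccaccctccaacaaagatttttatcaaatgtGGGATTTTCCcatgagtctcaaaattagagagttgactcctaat
Over windows of 300 bases, from 250 before to 50 after the start, the motif in either orientation was found in 48.1% of the 27 promoters of the list and in 4.51% of all 32851 promoters. The 27 promoters belong to 24 genes of the list, taken whether or not they were tested or called. Motif shares here and below describe the lists and not the genes that differed. A match is a description of the letters and not evidence of binding.

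All 21 tested annexins and S100 proteins, which bind calcium, and galectins, which bind sugars, were higher in ST, with a rescaled median of 2.21. Anxa2, which links membranes to actin, was at 14.6 and 15.3 TPM in LT and at 159 TPM in both ST libraries. Anxa1, known for limiting inflammation, went from 10.8 and 11.2 TPM to 133 and 119 TPM, and S100a4, a motility-associated calcium sensor that is also on the stroma list, from 7.01 and 6.78 TPM to 224 TPM in both ST libraries. In the caveolae list, whose proteins coat flask-shaped membrane pits, 11 of 11 tested members were higher, including Cavin3 (2.78) and Cav1 (2.58).

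Matrix remodelling and adhesion genes followed. Of 24 proteases, inhibitors and crosslinkers tested 22 were higher and 1 was lower, with a rescaled median of 2.47. The inhibitor Timp2 went from 16.6 and 17 TPM to 215 TPM in both ST libraries, and the collagen crosslinker Lox from 2.03 and 2.84 TPM to 31.7 and 30.6 TPM. Of the proteases, Mmp9 rose by 3.06, Mmp2 by 3.02 and Mmp14 by 2.63, and Mmp11 fell by 0.19. Basement membrane genes were higher in 12 of 14, with the type IV collagen chain Col4a2 (2.92), the linker protein gene Nid1 (2.72) and Col4a1 (2.68) at the top. Integrins and focal adhesion genes were higher in 14 of 19, led by the fibronectin receptor subunit Itga5, which was at 10.6 and 12 TPM in LT and 127 and 124 TPM in ST.

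Mesenchymal regulators and the contractile machinery moved less evenly. Among 17 mesenchymal transition factors 11 were higher and 2 lower, with Snai1, a repressor of E-cadherin, at 7.33 and 9.10 TPM in LT and 73.8 and 74.6 TPM in ST. Among 17 actomyosin genes 11 were higher and 2 lower, and among 18 targets of the mechanosensitive YAP and TEAD factors 14 were higher and 2 lower. The receptor tyrosine kinase Axl (2.90) and tissue factor F3 led the YAP list, while its better known members Ctgf (0.94) and Cyr61 (1.01) rose less. Epithelial junction genes went the other way, with 11 of 24 lower and 2 higher. Cldn7, a tight junction claudin of chromosome 11, went from 47.3 and 51.3 TPM to 20.8 and 22.6 TPM, and the cell adhesion molecule Epcam from 115 and 111 TPM to 76.1 and 78.4 TPM. Cldn3 (-0.84) was no longer called without LT replicate 2 (-0.53) or without ST replicate 1 (-0.59).

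Markers of fibroblasts, which serve as feeder cells in stem cell culture, moved with all of these groups. All 14 tested markers were higher in ST, 12 of them also on the stroma list, and their summed level was 32.0 and 34.4 TPM in LT, 604 and 611 TPM in ST, and 239 and 260 TPM in RT. Dcn, a small matrix proteoglycan of fibroblasts, went from 4.31 and 4.37 TPM to 91.5 and 84.9 TPM. The share that such cells have in the differences was not tested, and in bulk RNA more cells of a type and more RNA per cell cannot be told apart. Markers of other cell types differed from type to type. The 12 blood markers listed summed to 27.4 and 22.7 TPM in LT and 23.4 and 29.2 TPM in ST, and none of the 4 tested was called. Of the 12, Ptprc, Adgre1 and Tyrobp were at or near 0 in all 4 libraries (at most 0.151 TPM), so the sums came from other members. Of 10 primitive and visceral endoderm markers tested 9 were higher, from a sum of 5.42 and 4.83 TPM to 40.4 and 39.0 TPM, with Gata4 at 4.61 and 4.59 TPM in ST and Afp at or below 0.0729 TPM. The endoderm list shares 1 member, Pdgfra, with the fibroblast markers. Endothelial markers had 4 higher and 2 lower of 6 tested, and summed to 27.5 and 32.4 TPM in LT and 46.1 and 43.5 TPM in ST. Among them Cdh5, Kdr and Tie1 were under 1 TPM. Of 4 neural markers tested 1 was higher and 2 were lower, of 3 trophoblast markers 1 was higher, and of 3 striated muscle markers 2 were lower.

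Lysosomal genes were mostly higher. Of 36 tested members 29 were higher and none lower, with a rescaled median of 1.06. The protease cathepsin B, Ctsb, was at 28.7 and 32.6 TPM in LT and 241 and 231 TPM in ST (log2 difference 2.91 ± 0.08), and cathepsin D, Ctsd, at 164 and 172 TPM against 856 and 839 TPM. Ctsk and Ctsh rose by 3.14 and 3.31, the sphingolipid activator precursor Psap by 2.35 and the cholesterol carrier Npc2 by 2.23. The lysosomal transcription factors themselves were not called (Tfeb 0.24, Tfe3 -0.08). The summed level of the list was 1010 and 1024 TPM in LT, 3437 and 3350 TPM in ST, and 1140 and 1268 TPM in RT, whose nuclear protein-coding share was the lowest. Autophagy genes were higher in 15 of 26 and lower in 1.

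Lysosomal promoters are known for a motif bound by TFEB, TCACGTGA. It was found in 14.3% of the 35 promoters of the list and in 0.974% of all promoters, in windows of the same length. The 2 members with the largest gains that hold it within 120 bases of the start were Ctsd, at chr7:142387828-142387947 (minus strand), and the carboxypeptidase Ctsa, at chr2:164833653-164833772 (plus strand), shown with the motif in capitals.
Ctsd: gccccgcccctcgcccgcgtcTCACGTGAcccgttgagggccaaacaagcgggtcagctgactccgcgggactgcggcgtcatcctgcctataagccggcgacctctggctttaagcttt
Ctsa: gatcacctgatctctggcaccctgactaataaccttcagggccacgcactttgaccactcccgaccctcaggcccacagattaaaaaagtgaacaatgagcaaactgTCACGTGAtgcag
Ctsa went from 31.0 and 34.2 TPM to 86.5 and 83.4 TPM (log2 difference 1.36 ± 0.10).

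Stress response genes were divided. Of 30 genes of the unfolded protein and integrated stress responses 19 were higher and 1 lower, with a rescaled median of 0.43. Nupr1, a stress-induced chromatin regulator, was at 7.36 and 7.94 TPM in LT and 69.2 and 68.2 TPM in ST, while Atf4 (0.27) and Xbp1 (0.44), central factors of these responses, were not called and the amino acid enzyme Asns fell (-0.89). Among 33 NRF2 and glutathione genes 16 were higher and 8 lower. Mgst1 (2.65), Gpx8 (2.46) and Gsto1 (1.99), all glutathione-using enzymes, rose, and the glutathione synthesis subunits Gclc (-0.42) and Gclm (-0.36) fell. Metallothionein Mt1, which binds zinc and cadmium, was at 211 and 209 TPM in LT and 393 and 396 TPM in ST. Of 25 BCL2 family and caspase genes 10 were higher and 5 lower, led by Casp8 (2.02), an initiator caspase, with the survival gene Bcl2l1 also higher (1.31).

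Hox genes, which set position along the body axis and are normally off in pluripotent cells, were raised across all 4 clusters. Of 26 tested Hox and Cdx genes 25 were higher and none lower, with a rescaled median of 1.43, and 12 more were below the filter. Hoxc10 was at 0.817 and 0.659 TPM in LT and 13 and 12.9 TPM in ST, and Hoxc9 at 0.722 and 1.11 TPM against 9.99 and 10.4 TPM. Hoxb9 (2.77), Hoxa5 (2.01) and Hoxd8 (2.43) are examples from the other clusters. Levels stayed modest, and Hoxb5 was the tested member not called. Polycomb genes, whose products keep Hox genes silent, fell in 14 of 31 and rose in 3. Ezh2 (-1.09) and Suz12 (-1.30), core subunits of the complex that methylates histone H3, were lower, with Suz12 at 51.2 and 44.7 TPM in LT and 19.4 and 18.4 TPM in ST, while Bmi1 went up from 1.13 and 0.996 TPM to 6.11 and 6.43 TPM. Suz12 lies on chromosome 11 and Ezh2 on chromosome 6.

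Signalling pathways split by member. Wnt5a, a ligand of the non-canonical Wnt pathway, was at 1.12 and 1.20 TPM in LT and 20.9 and 20.7 TPM in ST (log2 difference 3.34 ± 0.12), and the receptor Fzd1 (2.41) and the Wnt secretion factor Wls (2.36) rose with it. Axin2, the usual readout of canonical Wnt activity, was not called (-0.10), and Tcf7 (-1.03), Tcf7l1 (-1.05) and Lgr4 (-0.79) fell. In all, 13 of 29 Wnt genes were higher and 6 lower. The split followed chromosome 11 in part, where 1 of 6 was higher and 3 were lower, with a rescaled median of -0.56. Elsewhere 12 of 23 were higher and 3 lower, with a rescaled median of 0.38. The Notch ligand Jag1 was at 7.36 and 6.51 TPM in LT, 49.1 and 41.4 TPM in ST, and 5.57 and 6.37 TPM in RT, and the Notch target Hes1 rose by 1.03, with 5 of 14 Notch genes higher and 2 lower. Of 16 genes of the IGF system 9 were higher and 3 lower, with Igf2, Igfbp6 (2.90) and the IGF-binding protein protease Pappa (2.71) at the top. Ephrins, semaphorins and other guidance genes were higher in 21 of 31 and lower in 4, and Hedgehog genes were higher in 5 of 11.

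Pluripotency and early germ cell genes were divided. Pou5f1 was at 123 and 136 TPM in LT and 116 and 114 TPM in ST and was not called, and Sox2, at 86.0 and 85.7 against 74.0 and 75.2 TPM, was called lower on the rescaled values alone. Nanog went from 74.7 and 72.8 TPM to 40.2 and 38.5 TPM (log2 difference -0.89 ± 0.10), and the de novo DNA methyltransferase Dnmt3b from 164 and 169 TPM to 89.0 and 92.8 TPM. The Nodal co-receptor Tdgf1 fell by 0.76. Of 20 identity genes of epiblast-like aggregates 10 were lower and 3 higher, with Pou5f1 and Sox2 still well expressed in all 4 libraries. The early germ cell gene Dppa3 was at 51.1 and 45.0 TPM in LT and 20.4 and 21.2 TPM in ST. Prdm1, the first specifier of germ cells, was low but higher in ST (2.91 and 2.99 TPM against 1.47 and 1.19 TPM), Nanos3 rose by 1.36, and Tfap2c fell by 0.46, a call lost without LT replicate 1 (adjusted p = 0.099) or ST replicate 2 (adjusted p = 0.086). The mesoderm gene T (Brachyury) was at 12.3 and 9.87 TPM in LT and 6.93 and 5.41 TPM in ST, and was not called with a pseudocount of 0.1 (adjusted p = 0.135). Tested primordial germ cell markers were thus split, 4 higher and 5 lower of 10. Xist, the RNA that coats the inactive X chromosome, was at 2.86 and 2.42 TPM in LT and 15.8 and 15 TPM in ST, and its overlapping antisense gene Tsix at 3.69 and 3.52 against 22 and 23.5 TPM. Reads of these overlapping genes cannot be told apart without strand. The Y-linked Ddx3y stood at 8.88 and 7.26 TPM in LT and 8.77 and 9.31 TPM in ST and was not called.

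DNA replication genes were the most uniformly lower group. Of 50 tested members 44 were lower and none higher, with a rescaled median of -0.73. Rpa3, a subunit of the single-strand DNA binding protein RPA, was at 84.9 and 75.7 TPM in LT and 28.1 and 24.2 TPM in ST (log2 difference -1.58 ± 0.08). Gins1, part of the replicative helicase, went from 41.5 and 37.7 TPM to 16.7 and 16.5 TPM. The list's summed level was 1590 and 1630 TPM in LT, 1075 and 1039 TPM in ST, and 859 and 932 TPM in RT. RT thus stood lowest on the deposited values, where its nuclear protein-coding share (27.1% and 29.1%) was also the lowest.

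Mitotic genes followed closely, with 48 of 58 lower and none higher and a rescaled median of -0.67. Mad2l1, the spindle checkpoint protein, was at 10.7 and 11.6 TPM in LT and 3.34 and 3.87 TPM in ST, and the kinetochore gene Cenph at 58.4 and 56.1 TPM against 26.2 and 23.0 TPM. Mki67, the usual marker of cycling cells, was at 12.8 and 12.1 TPM in LT and 7.24 and 7.86 TPM in ST (log2 difference -0.65 ± 0.11). The falls were mostly under 2-fold, which 4 replication genes and 5 mitotic genes passed. Nucleotide and one-carbon enzymes were lower in 18 of 30 and higher in none, with the glycine cleavage enzyme Amt at 43.8 and 43.2 TPM in LT and 14.9 and 17.5 TPM in ST. Of 43 homologous recombination and Fanconi genes 19 were lower and none higher, and of 21 cohesin and condensin genes 12 were lower and 2 higher. Of 20 telomere and telomerase genes 8 were lower and none higher, including the shelterin proteins Terf1 (-0.36) and Pot1a (-0.65) and the telomerase RNA-binding protein Dkc1 (-0.29), while Tert was called lower on the rescaled values alone (-0.48).

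Promoters of these genes are known for cell cycle elements, and 4 are shown. The CHR element TTTGAA was found in 63.8% of 58 promoters of the mitotic list and in 17.9% of all promoters, and CCAAT in 74.1% against 37.4%. The E2F motif, searched as TTTCCCGC, TTTGGCGC or TTTCGCGC, was found in 34.0% of 50 promoters of the replication list and in 1.84% of all. All motifs were searched on both strands. Members on chromosomes 11 and 18 were left out, and motifs had to lie within 120 bases of the start. The 4 shown are the remaining called members with the largest falls and the motif, for the mitotic pair both motifs. They are Prc1, a midzone microtubule bundler, at chr7:80294356-80294475 (plus strand), Kif11, the spindle kinesin Eg5, at chr19:37376262-37376381 (plus strand), Gins3, a helicase subunit, at chr8:95633439-95633558 (plus strand), and Orc1, of the origin recognition complex, at chr4:108579334-108579453 (plus strand), with motif bases in capitals.
Prc1: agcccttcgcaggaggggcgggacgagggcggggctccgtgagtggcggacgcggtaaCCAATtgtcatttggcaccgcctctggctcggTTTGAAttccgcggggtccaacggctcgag
Kif11: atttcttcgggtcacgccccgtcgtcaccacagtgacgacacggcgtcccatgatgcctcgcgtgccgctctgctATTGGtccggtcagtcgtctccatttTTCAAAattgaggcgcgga
Gins3: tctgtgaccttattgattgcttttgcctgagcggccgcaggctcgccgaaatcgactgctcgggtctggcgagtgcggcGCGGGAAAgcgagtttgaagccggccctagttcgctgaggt
Orc1: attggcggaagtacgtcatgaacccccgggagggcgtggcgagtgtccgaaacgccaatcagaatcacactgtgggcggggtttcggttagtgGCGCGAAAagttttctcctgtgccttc
Prc1 went from 11.1 and 11.6 TPM to 6.55 and 7.29 TPM and Kif11 from 17.5 and 18.1 TPM to 11.3 and 11.5 TPM. Gins3 went from 5.61 and 5.91 TPM to 3.76 and 2.54 TPM and Orc1 from 12.2 and 12 TPM to 9.17 and 6.71 TPM.

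Many of the lower genes lay on chromosome 11. Of 1032 nuclear protein-coding genes of chromosome 11 tested, 426 (41.3%) were lower and 195 (18.9%) higher, with a rescaled median of -0.39. On the other chromosomes 1628 of 11292 (14.4%) were lower and 3779 (33.5%) higher, with a median of 0.04, and the medians of the other 18 autosomes ran from -0.08 to 0.17. All 9 windows of 15 Mb along chromosome 11 had medians between -0.48 and -0.25, and each pairing of an ST with an LT library gave a chromosome 11 median between -0.40 and -0.35. Chromosome 11 genes took 13.9% and 13.8% of the nuclear protein-coding TPM in the LT libraries, against 9.82% and 9.76% in ST and 10.0% and 9.97% in RT. In 12 of the other libraries the share ran from 9.19% to 10.3%, and in the embryonic germ cell libraries, the next highest, replicate 2 stood at 10.46% and replicate 1 within 0.1 of it, so it was the 2 LT 1dEB libraries that stood apart. Between ST and LT 1dMeioLC, the cells later cultured with gonadal cells for 1 day, the chromosome 11 median was 0.07. DNA copy number was not measured, and the share it has in these values was not tested.

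**Figure D4:**
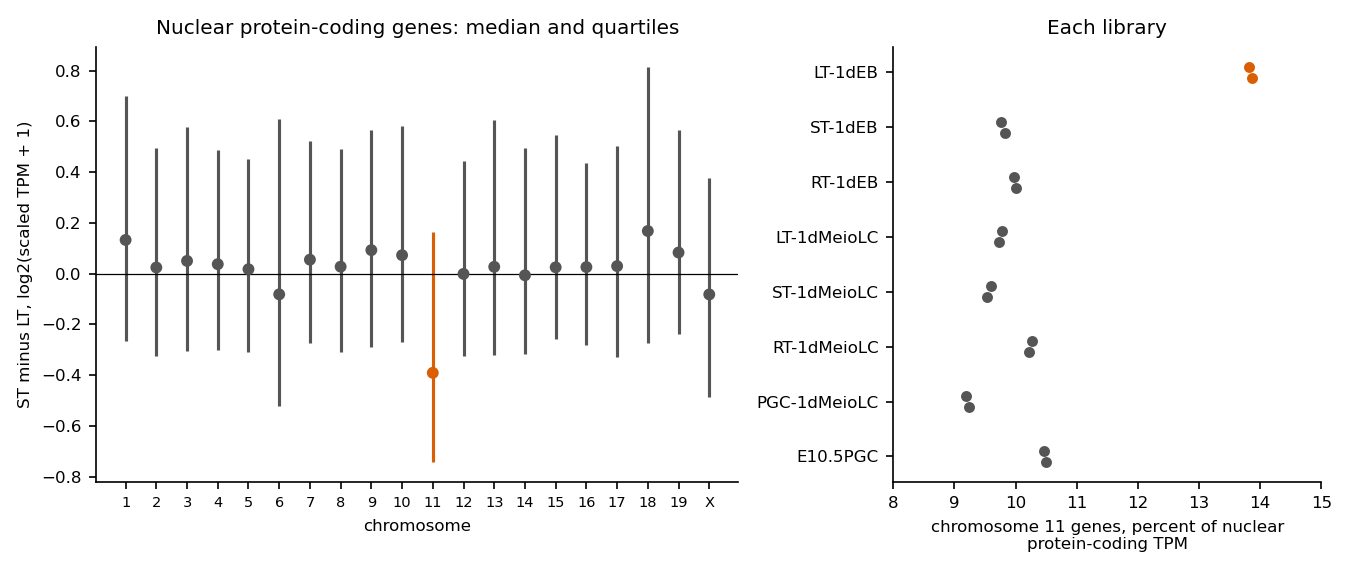
Left, median (point) and quartiles (line) of the ST minus LT difference, log2 of rescaled TPM + 1, for nuclear protein-coding genes of each chromosome. Right, percent of nuclear protein-coding TPM from chromosome 11 in each library, with the LT 1dEB libraries at 13.9% and 13.8% (orange) and the other libraries well below them, from 9.19%.

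The ribosomal protein and proteasome lists changed their reading once chromosome 11 genes were set aside. Of the 8 largest falls in TPM of nuclear protein-coding genes by the naming rule 7 were on chromosome 11, namely Rpl38, Npm1, Rpl23a, Rpl19, Rpl26, Ppia and Rpl27. Npm1, the abundant nucleolar protein nucleophosmin, went from 1773 and 1733 TPM to 884 and 827 TPM. Cytosolic ribosomal proteins were lower for 8 of 8 genes on chromosome 11 and for 8 of 66 elsewhere, where 6 were higher. Proteasome genes were lower for 8 of 8 on it and 3 of 27 elsewhere, so that elsewhere both lists were below the 15.3% of all genes. Splicing factors were lower for 4 of 4 and 18 of 38, ribosome biogenesis genes for 7 of 8 and 15 of 37, and homologous recombination and Fanconi genes for 6 of 7 and 13 of 36, all above that share elsewhere too. Among the well-known names, Top2a (-1.15), Birc5 (-1.08), Brca1 (-1.28), Cdc6 (-1.27), Tk1 (-1.18) and the lactate transporter Slc16a3 (-1.54) were all on chromosome 11. The counts of the replication and mitotic lists barely rested on it, with 41 of 47 and 44 of 53 lower elsewhere. The same was true of the Hox list, with 17 of 17 higher elsewhere. Chromosome 11 weighed more in the falls of at least 2-fold. It held 3 of 50 replication and 5 of 58 mitotic genes tested. Yet 2 of the 4 replication genes and 3 of the 5 mitotic genes with such falls were on it. Of the others with such falls, Rpa3 and Mad2l1 lie on chromosome 6.

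Lower genes were also frequent in a stretch of chromosome 6. Its 225 genes tested below 75 Mb had a rescaled median of -0.20 with 39.6% lower, and the 334 genes from 75 Mb on had a median of 0.01 with 20.1% lower. The boundary was chosen after the values were seen. Windows of 15 Mb within the stretch were uneven, with medians of -0.13, 0.23, -0.41, -0.38 and -0.09 from its start, while the lowest window beyond it had -0.11. The genes Mest, Copg2, Rpa3, Mad2l1, the splicing factor Hnrnpa2b1 (-1.13), the RNA polymerase I subunit Polr1a (-0.89), Ezh2, Asns, Tcf7l1, Pot1a and the respiratory chain subunits Ndufa5 (-0.68) and Ndufa4 (-0.57) all lie in that stretch, and so do the 6 named genes that rose there, Trbj2-3, Npy, Tfpi2, the contractility regulator Cald1 (2.85), the caveolar Cav1 and the stress gene Gadd45a (1.09).

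Highly expressed housekeeping groups depended on the scale. On the deposited values 17 of 74 cytosolic ribosomal proteins were higher and 16 lower, with a median of 0.00, and on the rescaled values 6 were higher and 51 lower, with a median of -0.20. The nuclear-encoded respiratory chain gave 20 higher and 17 lower of 68 on deposited values, and 6 higher and 37 lower on rescaled values. No direction can be given for these groups that holds on both scales. Mitochondrially encoded genes were lower in 12 of 15 on both scales with none higher. Outside this list of 15, the short mitochondrial tRNA gene mt-Tk fell further (-2.61). Within the list the largest fall was that of the ATP synthase gene mt-Atp8 (-1.63). Its LT libraries stood at 37.2 and 180 TPM against 34.5 and 19.3 TPM in ST, so that the groups were close in 1 library each. Its call ended without LT replicate 2 (-0.51, adjusted p = 0.222) and without ST replicate 2 (-1.23, adjusted p = 0.18). It overlaps mt-Atp6 (-1.28), whose LT libraries differed at 287 and 139 TPM and whose call ended without LT replicate 1 (adjusted p = 0.052).

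**Figure D5:**
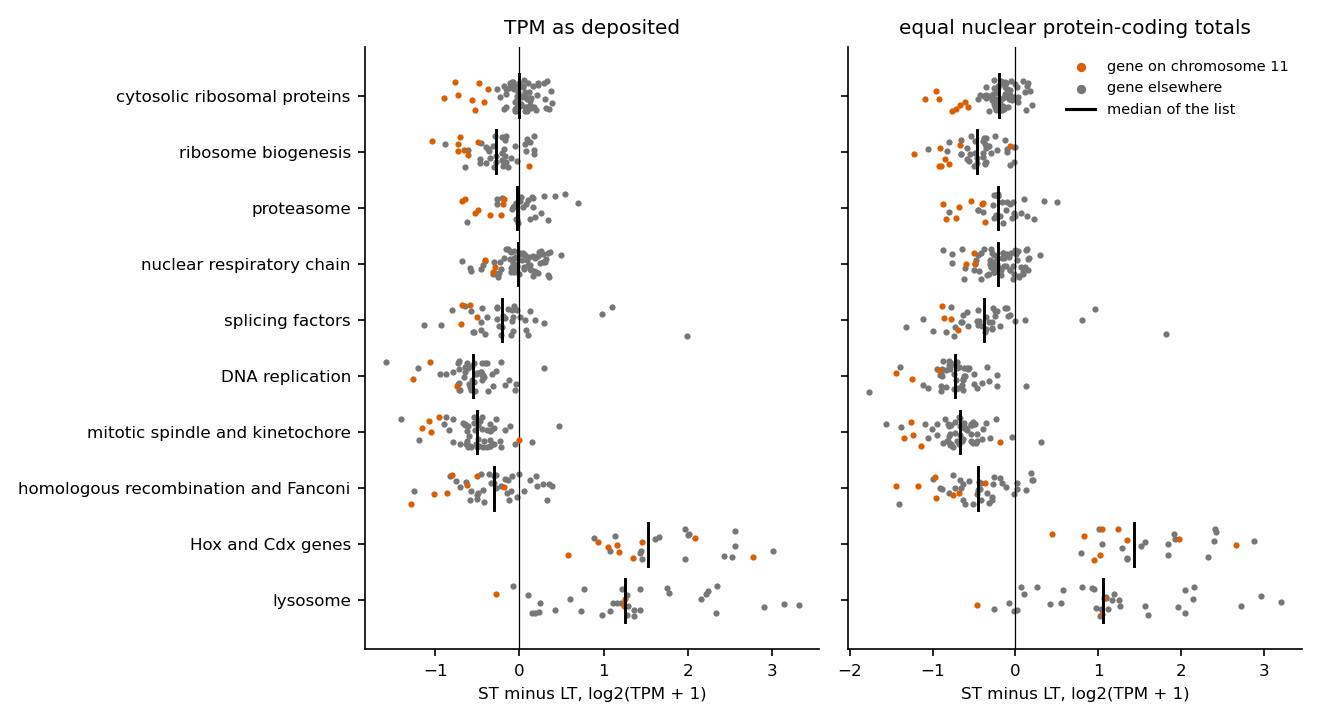
ST minus LT difference in log2(TPM + 1) for each tested member of 10 gene lists, on deposited TPM (left) and on rescaled values (right), with chromosome 11 genes in orange and a bar at each list's median. Ribosomal proteins sit around 0 on the left (median 0.00) and below it on the right (median -0.20), while replication genes stay below 0 and Hox genes above 0 in both panels.

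Metabolic lists had more lower than higher members, in part through chromosome 11. Glycolysis genes had 3 higher and 6 lower of 22, and fatty acid genes 4 higher and 8 lower of 20. Off chromosome 11, glycolysis had 3 higher and 4 lower of 20, and fatty acid genes 4 higher and 5 lower of 16. Cholesterol genes, none of them tested on chromosome 11, had 1 higher and 9 lower of 24, with the sterol sensor Insig1 at -0.82. The higher fatty acid genes were the elongase Elovl1 (0.91), the acyl-CoA ligase Acsl4 (0.72), the phosphatase Lpin1 (1.15) and Plin2, which coats lipid droplets, at 24.4 and 21.3 TPM in LT and 183 and 169 TPM in ST. Hk1, the first enzyme of glycolysis, rose by 1.35 and the glucose transporter Slc2a3 fell by 0.82. Splicing factors were lower in 22 of 42 and higher in 3, the latter all regulators of differentiation-linked splicing, Mbnl2 (1.99), Mbnl1 (1.10) and Rbfox2 (0.98). Among let-7 targets and oncofetal genes, Hmga2, a chromatin architecture gene, went from 9.26 and 8.6 TPM to 65.0 and 60.8 TPM, and Lin28a, at 32.8 and 32.7 against 22.6 and 24.2 TPM, was lower.

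The rescued cells and the later stage give 2 further readings of the same lists. RT and ST share the LT libraries as reference, so their differences from LT are set side by side only. The rescaled median of the senescence-associated list was 2.48 in ST and 1.20 in RT, that of the fibroblast markers 2.72 and 1.73, of the lysosome 1.06 and 0.43, of DNA replication -0.73 and -0.31, and of mitotic genes -0.67 and -0.14. RT did not lie between LT and ST in every list. It was level with ST for YAP and TEAD targets (0.85 in both). It was further from LT than ST for p53 targets (0.57 in ST, 0.84 in RT) and fatty acid genes (-0.18 in ST, -0.36 in RT). The 1dMeioLC libraries are separate from those at 1dEB, and 18.5% of all genes were higher and 13.0% lower in ST there. Of the 27 senescence-associated genes 6 were higher and 5 lower in ST at that stage, and for 24 of them the ST minus LT difference was larger at 1dEB than at 1dMeioLC by the stage term of the fit, against 21.7% of all genes. For the lysosome this held for 28 of 36, and for DNA replication the difference was more negative at 1dEB for 28 of 50, against 13.6% of all genes. Genes were kept by their 1dEB values, and the stage term contains the 1dEB difference. High counts for lists already set apart at 1dEB follow in part from that and carry no test of the lists. Fibroblast markers summed to between 427 and 442 TPM in the LT and ST libraries at 1dMeioLC, where gonadal cells were part of the culture.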

How the data were processed

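Per the labels' protocols, total RNA went into NEBNext Ultra libraries. The authors deposited one table of TPM (length-corrected transcript shares) for 53564 gene symbols, in which every column sums to 1000000. Bowtie2, HISAT2, RSEM, R 3.4.2, DESeq2 and the mm10 build are named, per the submitters' processing notes, but the sources used here do not give the role of each, and read depth is unknown. Of the 28 columns, 16 matched 1 sample each and were used. The other 12 carry 6 names that each occur more than once and were not used.

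Genes with at least 1 TPM in 2 or more of the 4 LT and ST 1dEB libraries were kept. log2(TPM + 1) was fitted with limma 3.58.1 in R 4.3.3 over 16 libraries as 8 group means with a trend, and p-values were Benjamini-Hochberg adjusted over all 16897 genes. Fold changes on this scale understate the change of low genes. The fit was repeated after setting nuclear protein-coding totals equal, and was tested on simulated data. A gene was called at an adjusted p under 0.05 in the same direction on both scales. Differences are ST minus LT on deposited TPM unless rescaled values are named. Gene positions are from GENCODE M21 (mm10), matched by symbol, and promoters from RefSeq GRCm38.p6, with 10198 tested genes matched.

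Named genes were the 12 highest and 12 lowest differences among called genes whose higher group averaged 10 TPM or more. The 8 largest rises and falls in TPM of nuclear protein-coding genes passing the same filters were added. Both rankings left out members of the p53, stroma and interferon lists and genes whose libraries overlapped between the groups. Symbols starting with Gm and a digit or ending in Rik were left out too. Up to 4 leading members of each list and a fixed set of markers were also named. Other list members named with values were picked after their values were seen. Some items are not reported here. The members and lists were chosen with earlier results of these data known. Alternatives were other normalizations, filters, pseudocounts, sample sets and a replicate block, and each replicate left out in turn.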

Additional observations from a re-analysis of the deposited data

Results flagged for a closer look

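Each gene in this part had an adjusted p under 0.05 on deposited TPM in opposite directions in ST at 1dEB and at 1dMeioLC. The difference between the stages passed on both scales in the same limma fit. The opposite direction at 1dMeioLC was not required on the rescaled values. Nuclear protein-coding genes took 56.6% and 56.5% of TPM in ST at that stage, against 60.5% and 60.7% in LT. Of 237 named genes tested, 202 had a stage difference past the threshold on deposited TPM. By the rule just given, 27 (11.4%) had opposite directions. Over all 16897 genes a stage difference passed on deposited TPM for 43.8%, and opposite directions by the same rule were found for 7.09%. On both scales the stage difference passed above 0 for 21.7% and below 0 for 13.6% of all genes. The named genes were picked for large differences at 1dEB, so a high share with a stage difference follows in part from that choice. The values are the ST minus LT difference at 1dEB minus that at 1dMeioLC, in log2(TPM + 1). The 1dMeioLC cultures also hold gonadal cells, and their part in these values was not tested.

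Among secreted factors and their inhibitors, Npy had a stage difference of 7.20, Ccl8 of 5.33, Il11 of 4.88, Igf2 of 4.36 and Ccl2 of 4.30. The collagen crosslinker Lox stood at 4.09, the protein C receptor Procr at 3.60, the Wnt-related Dkk3 at 2.85 and the thyroxine carrier Ttr at 4.89. On deposited TPM these genes were higher in ST at 1dEB and lower in ST at 1dMeioLC. The same held for the cell cycle inhibitor Cdkn2b at 4.23, for the cathepsins Ctsb at 3.14 and Ctsd at 2.66, for the kinase Nuak2 at 2.91, for the smooth muscle actin Acta2 at 2.53 and the actin-binding Tmsb4x at 2.39, for metallothionein Mt1 at 1.83, and for the chromatin genes Bmi1 at 2.33 and Mbd2 at 1.45. The part of these values that came from 1dMeioLC varied. At 1dMeioLC alone the ST minus LT difference was -2.52 for Npy, -3.23 for Ttr and -1.50 for Ccl8. It was only -0.35 for Il11, -0.26 for Igf2 and -0.23 for Ctsb, whose stage differences were almost wholly those at 1dEB.

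The reverse order, lower in ST at 1dEB and higher at 1dMeioLC, was found for Snord64 at -7.31, Mest at -4.13, the claudin Cldn7 at -2.47, Nanog at -2.27, the glucose transporter Slc2a3 at -2.02, the DNA methyltransferase Dnmt3a at -1.33, transferrin Trf at -1.30, and the tRNA synthetases Rars at -0.83 and Kars at -0.51. At 1dMeioLC alone the ST minus LT difference was 3.55 for Snord64 and 1.38 for Nanog, but only 0.24 for Mest and 0.18 for Kars. Cldn7 and Rars lie on chromosome 11, whose share of protein-coding TPM set the LT 1dEB libraries apart.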

How the results depend on the processing

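On deposited TPM 5777 genes were higher and 2579 lower. Protein-coding scaling gave 4226 lower, and quantile normalization 5039 lower, with 1045 lower by at least 2-fold on that scale alone, beside 491 on both scales. A filter of at least 5 TPM gave 1408 higher and 252 lower by at least 2-fold, with fewer genes tested. Leaving out each replicate gave 4966 to 5097 higher, 1936 to 2297 lower, 2076 to 2146 higher by at least 2-fold and 453 to 578 lower by at least 2-fold. Without chromosome 11, an alternative added after seeing the data, 5496 were higher and 2082 lower. With the replicate number as a block 5489 were higher and 2355 lower, and 2143 and 487 by at least 2-fold. A fit of the 4 LT and ST 1dEB libraries alone gave 4817 higher and 1938 lower. Samples of the same number did not deviate together (r = 0.025), so the numbers do not pair the samples. Under the alternatives in which each was tested, up to 12, no named gene changed direction and 215 of 237 kept their side of the threshold; the filter of 5 TPM tested 213 of them. The cause of these shifts was not tested. Depth is unknown, so counting error could not be set beside any value, and short RNA genes are the least certain.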

Other observations

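Among groups not described above, DNA methylation genes were divided, with 6 higher and 8 lower of 19. The methyltransferase Dnmt3a fell by 0.83 and the methyl-CpG binding gene Mbd2 was higher. Of 31 mismatch, excision and end joining repair genes 12 were lower and 3 higher, and of 22 aminoacyl-tRNA synthetases 5 were lower. Chaperones had 4 higher and 7 lower of 27. Those higher included the small heat shock protein gene Cryab (3.26), at 82.9 and 85.2 TPM in ST, the co-chaperone Bag3 (2.26) and Hspb1 (0.92), at 695 and 668 TPM in ST.

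Keratins and other intermediate filaments were higher in 6 of 13 and lower in 2, with the nuclear lamina gene Lmna at 89.9 and 90.8 TPM in ST. Metallothionein and iron genes were higher in 6 of 17 and lower in 3. Of 12 genes of the MYC and MAX network 3 were higher and 1 lower, and of 9 apolipoprotein and visceral endoderm secretory genes 2 were higher and 1 lower. These counts stand beside 28.3% higher and 15.3% lower among all genes tested.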
